A study of Rattus norvegicus with 15 samples.

Results

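Normal rat lung was described from the 5 control libraries of a series of 15, and from no other library. The series held 3 groups of 5 libraries: untreated controls, rats with acute lung injury from lipopolysaccharide given into the trachea, and injured rats also given the herbal formula Sang Ju Yin by mouth. The controls were labelled as wild-type (WT) rats under the treatment "normal control", with lung as the tissue, and they are called control 4 to control 8 after the numbers in their labels. Strain, age, sex, time of day and the part of the lung taken are not given in the sources used here, nor do they tell single animals from pools, so an SD over the 5 libraries measures the spread between these samples only. Each library had a value for 22250 genes.

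The lung is a sheet of air sacs wrapped in capillaries. Flat alveolar type I cells carry gas exchange, cuboidal type II cells make surfactant, and club and ciliated cells line the airways. Macrophages patrol the air spaces and the interstitium, and fibroblasts and smooth muscle hold the tissue together. RNA of whole lung mixes all of these cells, so fewer cells of a type and less RNA per cell cannot be told apart in any value given here.

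Values are FPKM, fragments per kilobase of gene and per fixed number of mapped fragments, so levels of different genes are compared per length. A share is a percent of the FPKM summed over a library, and is therefore not a share of reads. The sums ran from 495244 in control 6 to 554527 in control 4, and 13042 to 13232 genes reached 1 FPKM in a library. The number of reads was not recorded, but low values moved in whole-read steps. Over 261 to 319 genes under 0.1 FPKM, 86.0% to 89.0% of the ratios to control 4 lay within 0.005 log2 units of a ratio of 1 to 4 reads, and the size of the step put the depth of the other libraries at 95.2% to 99.4% of that of control 4. Control 4 stood furthest from the rest. Its Spearman correlations over 13253 genes were 0.949 to 0.959, against 0.959 to 0.979 among the other 4 libraries, and results that rest on it are also given without it.

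A small set of genes made up much of the total. The 3 leading genes held 8.04% of the summed mean FPKM, the first 10 held 16.2%, and the first 100 held 32.9%. It took 477 genes to reach 50% of the sum and 5801 to reach 90%. A mean of at least 1 FPKM was reached by 13253 genes, of at least 10 FPKM by 7676, of at least 100 FPKM by 688 and of at least 1000 FPKM by 29. A further 4477 genes were listed at 0 in all 5 libraries. A value of 0 does not show that a gene is silent, since Fth1, the ferritin heavy chain that nearly every cell uses, was also listed at 0 throughout.

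Lyz2, an antibacterial lysozyme of macrophages that type II cells also make, was the leading gene, at 16969, 13936, 13608, 12261 and 18193 FPKM in control 4 to control 8 (mean 14993 ± 2482, SD, n = 5). Scgb1a1, the main secreted protein of club cells, was at 16718, 11170.1, 10674, 14286 and 13834 FPKM (13336 ± 2468). Sftpc, the surfactant protein made by type II cells alone, was at 13361, 12127, 9156, 13121 and 15268 FPKM (12607 ± 2239). Their ranges overlapped, so the 3 are not separated by level: Lyz2 led in 4 libraries and Scgb1a1 in control 7. Mitochondrially encoded subunits followed, Mt-co1 at a mean of 9873 FPKM, Mt-co3 at 7351 and Mt-co2 at 6837. Tmsb4x, which binds actin monomers, was at 4613 FPKM and Eef1a1, the translation elongation factor, at 4497 FPKM. The rest of the 30 leading named genes held 2 more surfactant proteins (Sftpa1 at 3639 and Sftpb at 3599.7 FPKM), the antigen presentation genes Cd74 (1686) and B2m (1449), the type I cell receptor Ager (1278), and 4 ribosomal proteins, Rplp0 (1106), Rpl35 (1074), Rplp1 (1000.5) and Rpl10 (968). Selenop, a secreted selenium carrier, was at 2134 ± 369 FPKM and the actin-severing protein Gsn at 1894 ± 354 FPKM. Without control 4, 28 of the 30 leading genes stayed among the first 30, and without any other library 29 or 30 did.

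**Figure D1:**
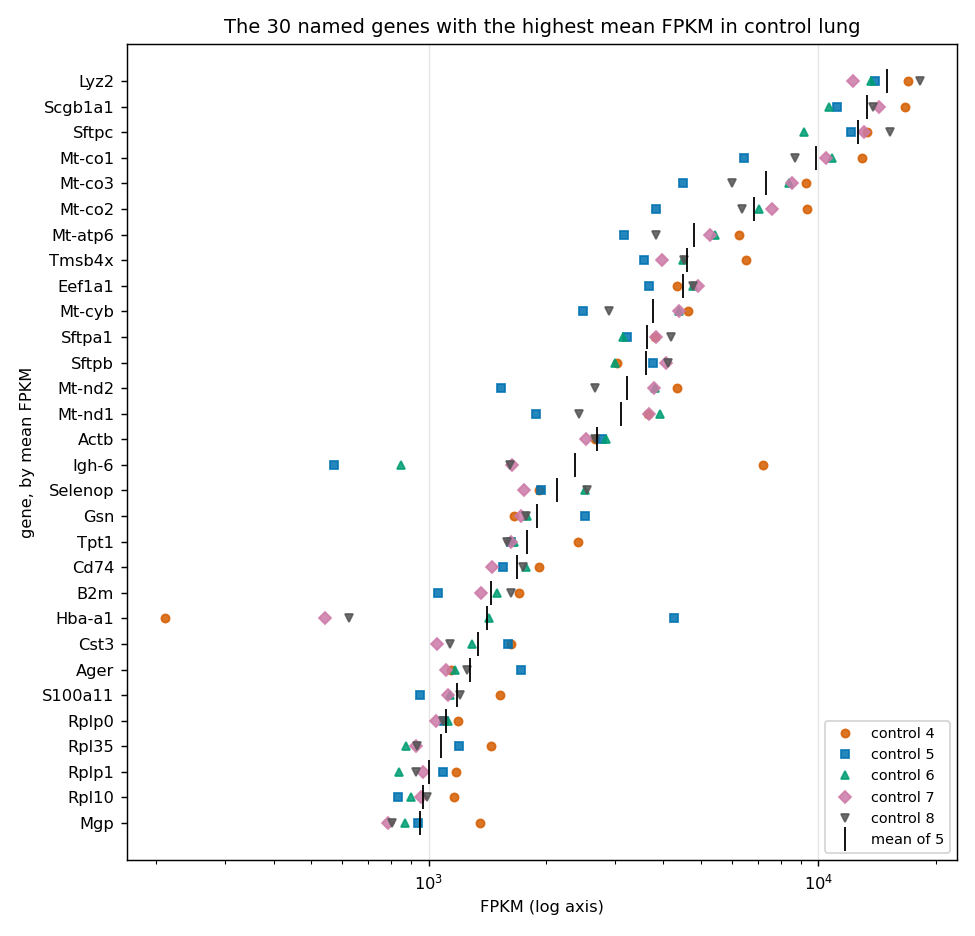
FPKM (log axis) of the 30 named genes with the highest mean in control lung, with 1 point for each of 5 libraries and a vertical tick at the mean. Most points of a gene lie close together, while Igh-6 runs from 571 to 7194 FPKM and Hba-a1 from 209.9 to 4260.1 FPKM.

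Genes were sorted into 55 lists of cell types and functions, each gene counted once, in the first list that holds it. The 1396 listed genes held all but 55.4 ± 1.54% of the summed FPKM (SD, n = 5). Epithelial markers held 8.85 ± 0.907%, mitochondrially encoded genes 8.11 ± 1.94% and genes of the translation machinery 7.99 ± 0.596%. Immune genes held 6.01 ± 0.605%, cytoskeletal, chaperone, proteasome and histone genes together 4.88 ± 0.277%, metabolic genes 3.40 ± 0.0827%, matrix and fibroblast genes 1.60 ± 0.149%, endothelial genes 1.42 ± 0.212% and smooth muscle genes 0.266 ± 0.0604%. The metabolic share ran only from 3.30% to 3.49% between libraries, and the mitochondrial share from 5.19% to 9.62%. The order of epithelial and immune genes turned on Lyz2, which alone held 2.94 ± 0.45% and was counted as immune. With Lyz2 counted as epithelial instead, the epithelial share was 11.8 ± 1.19% and the immune share 3.07 ± 0.18%.

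**Figure D2:**
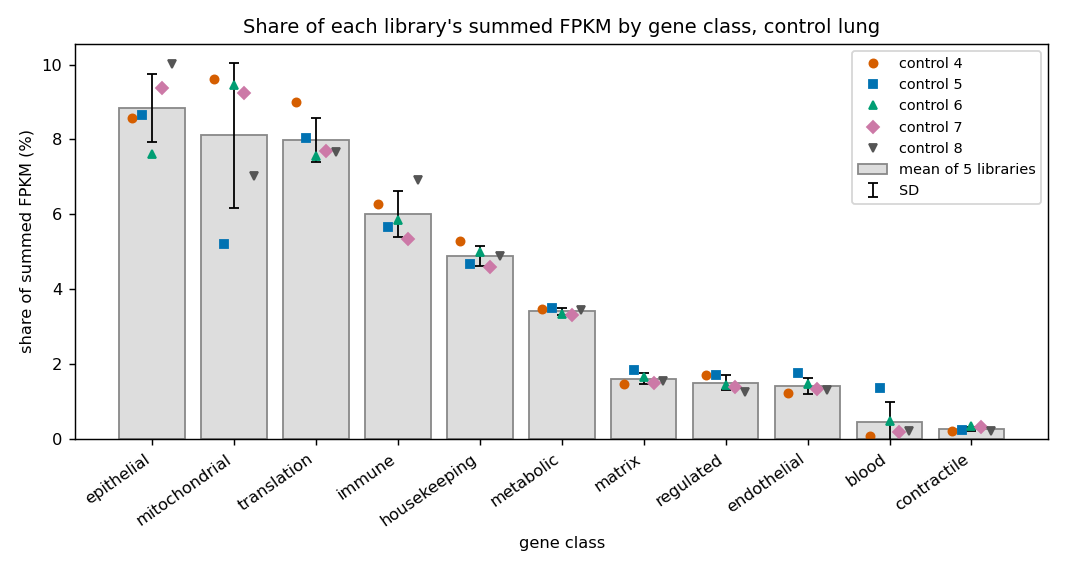
Share of each library's summed FPKM (percent, axis from 0) by gene class, with bars for the mean of 5 libraries, error bars for the SD and points for single libraries; "regulated" joins immediate early, clock, glucocorticoid-responsive, cell cycle, sex-linked and lung transcription factor genes. Control 5 is the lowest library for the mitochondrial class at 5.19% and the highest for blood at 1.36%, and the SD bar of blood is cut at 0.

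Type II cell genes held the largest part of the epithelial share, at 4.56 ± 0.67%. The 4 surfactant protein genes alone held 3.94 ± 0.611%, lowest in control 6 at 3.13% and highest in control 8 at 4.77%. Sftpd, a collectin of the airspace lining, was far lower than the other 3, at 226 ± 19.1 FPKM. Genes of the lamellar body, in which surfactant is stored, were at a mean of 207 ± 64.4 FPKM (Lamp3) and 105 ± 21.9 FPKM (Abca3, the lipid pump). Slc34a2, the phosphate transporter of type II cells, was at 346, 568, 513, 693 and 752 FPKM, lowest in control 4. The transcription factor Nkx2-1, which sets lung epithelial identity, was at 149 ± 15.6 FPKM. The member with the largest spread was Fabp5, a fatty acid carrier, at 174 FPKM in control 4 and 47.4 to 79.6 FPKM in the others.

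Type I cell genes held 1.28 ± 0.208%, from 0.96% in control 4 to 1.51% in control 5. Ager was at 1141, 1722, 1169, 1105 and 1251 FPKM, with control 5 above the rest. Hopx, a transcriptional cofactor, was at 719 ± 82.7 FPKM, and the water channel Aqp5 at 290.1 ± 38.2 FPKM. Spock2, a secreted proteoglycan, was at 31.9, 173, 108, 96.3 and 114 FPKM, and Timp3, a protease inhibitor bound to matrix, at 403, 836, 929.9, 826 and 877 FPKM. Both were lowest in control 4, as were 12 of the 21 type I genes, against 32.4% of all genes.

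Airway secretory genes held 2.68 ± 0.395%, nearly all of it Scgb1a1. The second secretoglobin, Scgb3a2, was at 263 ± 70.1 FPKM. Cyp2f4, a cytochrome P450 of club cells, was at 50.2 ± 28.3 FPKM. Ciliated cell genes held 0.146 ± 0.00859%, led by the tubulin-binding gene Tppp3 at 437 ± 36.8 FPKM, which alone held 0.0857% of the summed mean FPKM. Of the list 12 of 15 were highest in control 7, against 15.6% of all genes. Tppp3 was not among them and was highest in control 5, at 494 FPKM against 420 FPKM in control 7. Markers of basal cells were near 0, with Krt5 at 0 to 0.0742 FPKM and Tp63 at 0 to 0.0993 FPKM. Muc5b, a gel-forming mucin of large airways, was at 0.666 to 0.948 FPKM. Of 9 neuroendocrine genes 1 reached a mean of 1 FPKM, Calca at 1.41 FPKM.

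General endothelial genes held 0.844 ± 0.12% and capillary genes 0.477 ± 0.0935% of the summed FPKM. Epas1, the hypoxia-inducible factor most abundant in vessels, was at 897 ± 135 FPKM, and Ace, which makes angiotensin II on the capillary surface, at 339 ± 76 FPKM. Cdh5, the cadherin of endothelial junctions, was at 127 ± 24.5 FPKM. Plvap, a protein of the diaphragms of capillary pores, was at 754, 1028, 662, 541 and 508 FPKM, highest in control 5. Control 5 was the highest library for 18 of 29 general endothelial and 9 of 15 capillary genes, against 25.5% of all genes. Fmo2, a flavin monooxygenase counted with the capillary genes and held by the xenobiotic list too, was at 904 ± 182 FPKM. It alone held 0.178% of the summed mean FPKM, a large part of the capillary share. Of the lymphatic genes Lyve1, a hyaluronan receptor also made by some macrophages, was at 126 ± 14.9 FPKM, while the lymphatic regulator Prox1 was at 0.366 ± 0.106 FPKM.

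The interstitial macrophage and monocyte list held 3.71 ± 0.465%, most of it Lyz2. Csf1r, the receptor that keeps macrophages alive, was at 58.8, 68.3, 104, 97.9 and 84.3 FPKM. Cx3cr1, a chemokine receptor of monocytes, was at 1.83, 3.56, 9, 10.3 and 8.7 FPKM, so controls 4 and 5 were below the other 3 for both receptors. The alveolar macrophage list held 0.381 ± 0.0264%, led by Cd9 at 552 ± 77.1, Ctsd at 474 ± 49.6 and Lgals3 at 235 ± 75.8 FPKM. These 3 genes alone held 0.108%, 0.0930% and 0.0461% of the summed mean FPKM. Most of the list's share came from them, so it does not measure alveolar macrophages alone. The mannose receptor Mrc1 was lower, at 66.1 ± 15.2 FPKM, as was the lysosomal protein Cd68, at 77 ± 6.35 FPKM. Marco, a scavenger receptor of alveolar macrophages, was listed at 0 in all 5 libraries. Spp1, a secreted matrix protein of macrophages, was at 15.6, 1.81, 10.1, 10.6 and 2.05 FPKM, in 2 levels with controls 5 and 8 low.

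MHC class II genes held 0.452 ± 0.0447%, led by the invariant chain Cd74, which ran from 1451 to 1913 FPKM. The class II chains RT1-Ba and RT1-Bb were highest in control 6, at 121 and 113 FPKM, against 43.9 to 69.7 FPKM and 24.6 to 53 FPKM in the other libraries. The class I gene RT1-CE5 was also highest in control 6, at 79.2 FPKM against 17.8 to 53.2 FPKM. Other members differed. RT1-Da was highest in control 8, at 335 FPKM against 274 FPKM in control 6, and RT1-S3 was lowest in control 6, at 67.7 FPKM. In the class II and dendritic cell list 5 of 17 genes were highest and 3 lowest in control 6. In the class I list 5 of 18 were highest and 5 lowest in it, against 12.8% and 14.5% of all genes. RT1 genes are close copies of each other and differ between rat strains, so their values are uncertain. T and NK cell genes held 0.0879 ± 0.00913%, with the chemokine Ccl5 at 95 ± 10.3 FPKM and the coreceptor Cd4 at 40.6 ± 13.2 FPKM. Neutrophil genes held 0.0538 ± 0.00544%, led by Lcn2 at 128 ± 34.2 FPKM, which alone held 0.0251% of the summed mean FPKM. S100a8, a calcium-binding protein of neutrophils, was at 18.3, 24.9, 5.67, 9.83 and 12.6 FPKM, and Mpo, the granule peroxidase, was under 1 FPKM in every library. In the list of innate effectors and cytokines, the chemokines Ccl6 (346 ± 55.1 FPKM), Cxcl3 (226 ± 64.7 FPKM) and Cxcl17 (219.9 ± 23 FPKM) were the highest.

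Matrix genes were led by Mgp, an inhibitor of calcification, at 950.1 ± 234 FPKM, and Sparc, a collagen-binding protein, at 934 ± 159 FPKM. The 42 collagen genes together held 0.182 ± 0.0289%. Col3a1, of fibrillar collagen, was at 122 ± 26.3 FPKM and Col6a1, of beaded filaments, at 121 ± 19.1 FPKM, above Col1a1 at 15.1 ± 4.45 FPKM. Col4a2, of basement membranes, was at 53.8, 116, 95.6, 78.2 and 69.5 FPKM. Elastin (Eln), which gives the lung its recoil, was at 42.9 ± 10.9 FPKM. The fibroblast list was led by Gpx3, a secreted peroxidase, at 853 ± 169 FPKM. Inmt, a methyltransferase of lung fibroblasts, was at 69, 73.1, 40.6, 55.2 and 172 FPKM, with control 8 above the rest.

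Energy metabolism genes are given by genome and pathway. The 13 mitochondrially encoded genes took 9.62%, 5.19%, 9.45%, 9.24% and 7.03% of control 4 to control 8, with their cytochrome oxidase subunits alone at 4.70 ± 1.11%. Without control 5 the mitochondrially encoded share was 8.83 ± 1.21% in place of 8.11 ± 1.94%, so its spread rested partly on that library. Mt-nd2, a subunit of complex I, was at 4334, 1536, 3811, 3775 and 2672 FPKM, lowest in control 5. The 89 nuclear genes of the respiratory chain held 1.16 ± 0.136%, led by Cox4i1 at 306 ± 59.8 FPKM and Atp5f1b at 301 ± 20.2 FPKM, and control 4 was the highest library for 63 of the 81 at a mean of at least 1 FPKM, against 24.2% of all genes. Glycolysis held 0.236 ± 0.0123%, with Aldoa at 313 ± 24.4, Pkm at 178 ± 13.1 and Ldha at 157 ± 11.9 FPKM. The citric acid cycle and its transporters held 0.303 ± 0.00982%, fatty acid and cholesterol genes 0.342 ± 0.011% and xenobiotic genes 0.52 ± 0.0452%. Prdx6, a peroxiredoxin that repairs membrane lipids, was at 487 ± 32.5 FPKM and the P450 Cyp4b1 at 312 ± 40 FPKM. Ribosomal proteins held 6.13 ± 0.636%, from 5.62% in control 6 to 7.16% in control 4, which was the highest library for 74 of 85. With each library scaled to the same sum, which shifts control 4 by -0.12 log2 units against the mean of the libraries, control 4 was still the highest for 60 of the 85 ribosomal and 52 of the 81 respiratory chain genes. The share of all genes highest in control 4 on that scale is not given here, and the 24.2% is for FPKM only.

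Most markers of other tissues were low. Skeletal muscle, adipose, mesothelial, cartilage and cardiac genes each held 0.000785% to 0.00818% of the summed FPKM, with cardiac Myh6 at 0 to 0.0915 FPKM, atrial Myl7 at 0.0793 to 0.382 FPKM and Nppa listed at 0 throughout. The nerve and glia list held 0.0354%, nearly all of it the myelin protein Pmp22 at 165 ± 13 FPKM. The thyroid, liver and oesophagus list held 0.012%, led by the fibrinogen chain Fgg at 46.5 ± 10.4 FPKM and the protease inhibitor Serpina1 at 12 ± 4.83 FPKM. Thyroglobulin (Tg) was at 0.117 to 0.206 FPKM, and liver albumin (Alb) was listed at 0 in 4 libraries. Actc1, a sarcomeric actin, was the highest of the cardiac genes, at 11.1, 13.2, 28, 24.5 and 9.84 FPKM. Msln, a mesothelial surface protein, was at 24.1 FPKM in control 4 and 6.71 to 14.2 FPKM in the others. The Y-linked genes Eif2s3y (14.9 to 26 FPKM) and Kdm5d (11.5 to 16.7 FPKM) were present in all 5 libraries.

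Spread between libraries was measured as the range of log2(FPKM + 1). Of 13253 genes at a mean of at least 1 FPKM, 1741 (13.1%) differed at least 2-fold between their highest and lowest library on this scale, and 836 (6.31%) did so without control 4. The share depends on the scale: it was 20.2% (2849 genes) with each library scaled to the same sum (TPM) and 21.0% (2779 genes) with a pseudocount of 0.1. Leaving out any library can only shorten a range, and leaving out one of the others left 1316 to 1543 (9.93% to 11.7%). The median SD over the 13253 genes was 0.22 log2 units. The share past 2-fold was 22.4% at 1 to 5 FPKM, 12.3% at 5 to 20 FPKM, 7.63% at 20 to 100 FPKM, 8.19% at 100 to 1000 FPKM and 27.6%, or 8 of 29 genes, at 1000 FPKM and above. Those 8 are 5 mitochondrially encoded genes, Igh-6, Hba-a1 and 1 gene without a symbol. Control 4 was the lowest library for 776 of the 1741 genes, and control 8 was the highest for 491.

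**Figure D3:**
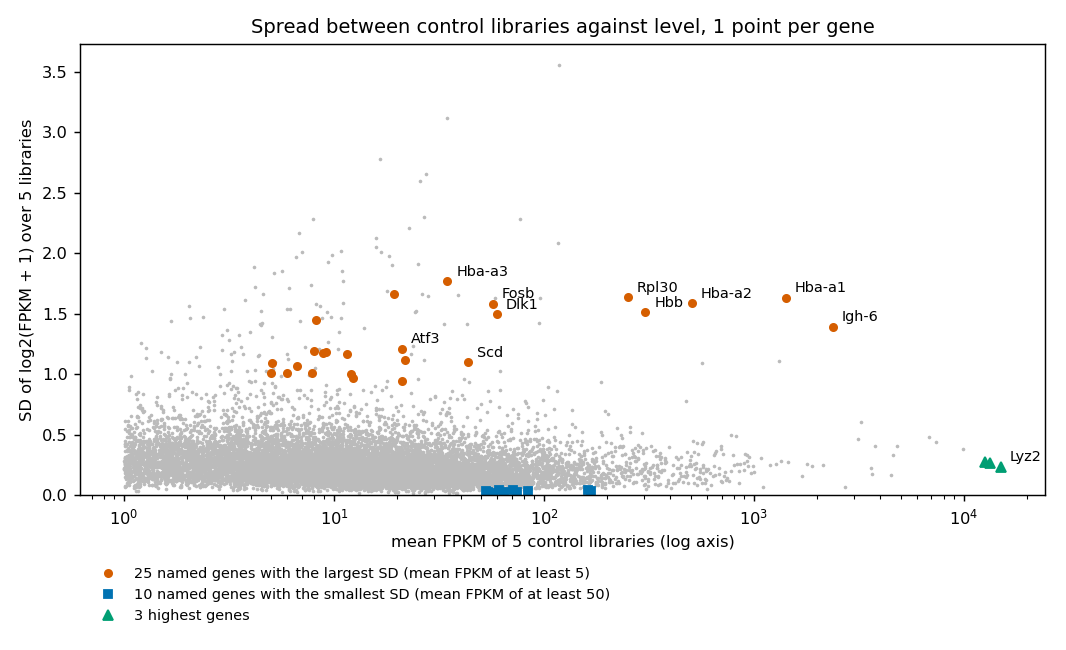
SD of log2(FPKM + 1) over the 5 libraries against mean FPKM (log axis), 1 point per gene at a mean of at least 1 FPKM, with the 25 named genes of largest and the 10 of smallest SD in colour. Most genes lie low, while Hba-a1, Igh-6 and other globin genes combine a high level with an SD of more than 1 log2 unit.

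The functional lists ranged widely around the background of 13.1%. Past 2-fold were 8 of 13 mitochondrially encoded genes, 14 of 25 innate effectors and cytokines, 17 of 35 immediate early genes and 15 of 36 interferon-induced genes. No gene was past it among 17 of glycolysis, 25 of the citric acid cycle and its transport, 15 translation factors and 11 pan-epithelial genes, and among heat shock proteins and chaperones 2 of 73 were. Type II cell genes (3 of 22), general endothelial genes (4 of 29) and ribosomal proteins (11 of 85) had shares near the background. Leaving out a library lowered the counts of several lists. It also lowered the share of all genes, to 6.31% without control 4 and 9.93% without control 5. Without control 5, 2 of 13 mitochondrially encoded genes, 9 of 25 innate effectors and 1 of 29 general endothelial genes were past 2-fold. Without control 4, 4 of 85 ribosomal proteins, 1 of 21 type I cell genes, 1 of 22 type II cell genes and 1 of 73 chaperones were.

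**Figure D4:**
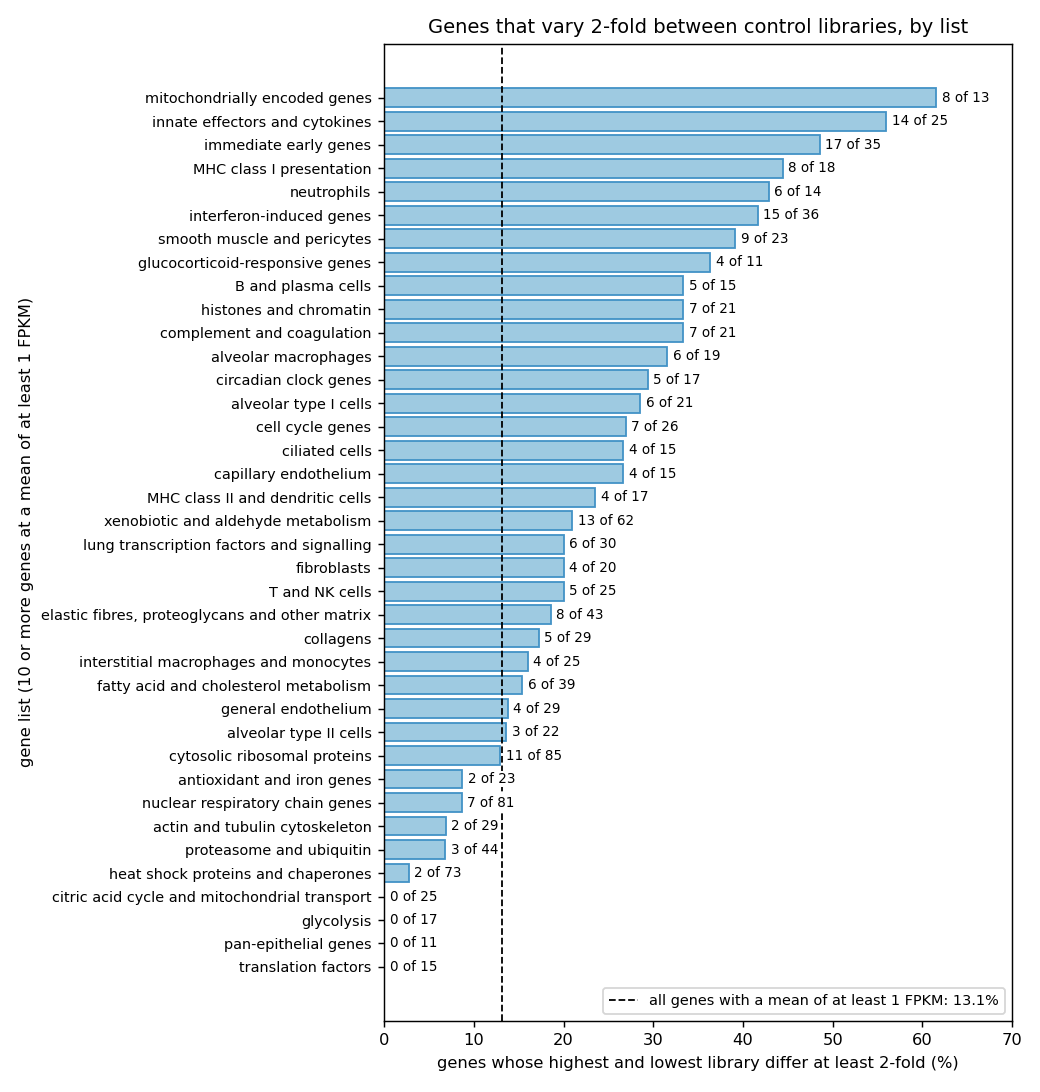
Percent of the genes of each list whose highest and lowest library differ at least 2-fold, for lists with 10 or more genes at a mean of at least 1 FPKM, with the counts beside the bars and a dashed line at 13.1% for all genes. Bars run from 0% for glycolysis to 61.5% for mitochondrially encoded genes.

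Of the gene classes, blood varied most. Globin genes code for the chains of hemoglobin, and their RNA remains in young red cells. They held 0.0662%, 1.35%, 0.483%, 0.167% and 0.197% of the summed FPKM in control 4 to control 8, a ratio of highest to lowest of 19.1 for the whole blood class. Hba-a1 was at 209.9, 4260.1, 1427, 541 and 625 FPKM. Hbb was at 66.6, 815, 415, 104 and 115 FPKM. Alas2, the first enzyme of heme synthesis in red cell precursors, was at 0.806, 9.73, 3.72, 1.13 and 0.936 FPKM. All 8 red blood cell genes at a mean of at least 1 FPKM were highest in control 5, against 25.5% of all genes, and 6 of 8 were past 2-fold. Without control 5, the mean share of the blood class was 0.233% in place of 0.459%. Hba-a1, Hba-a2 and Hba-a3 are close copies whose reads cannot be split with certainty.

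Antibody genes varied in another order. Igh-6, an immunoglobulin heavy chain gene, was at 7194, 571, 851, 1639.7 and 1615 FPKM, and its mean of 2374 FPKM rested on control 4. Without that library the mean was 1169 FPKM. Jchain, which joins IgA and IgM into polymers, was at 906, 202, 358, 439.5 and 472 FPKM. Ighm, the heavy chain of IgM, was at 144, 60.9, 85.7, 55.1 and 72.4 FPKM. All 3 were highest in control 4. Cd79a, part of the B cell receptor, was even by comparison, at 10.7, 8.63, 7.39, 10.2 and 8.64 FPKM. A variable segment, Ighv1-58, took a different order, at 11.2, 37.9, 5.02, 32.2 and 22.3 FPKM.

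Among genes without a symbol the spread was larger still. Of 10113 genes at a mean of at least 5 FPKM, 90 had an SD of at least 1 log2 unit, and 67 of these had no symbol, 59 of them under the name of an assembly contig. That is 25.5% of the 231 contig-named genes at this level, against 0.24% of 9589 genes with a symbol. AABR07060886.1 was at 292, 0.64, 3.12, 5.77 and 287 FPKM, and AABR07060872.1, the 24th highest gene, at 3305, 393, 904, 816 and 1142 FPKM. Of the 59, 24 were highest in control 4 and 17 in control 8, and 32 were lowest in control 5.

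Immediate early genes are switched on within minutes by stretch, growth factors or stress, through serum response factor, which binds the CArG box, and through CREB, which binds the cyclic AMP response element. Of 25 genes of the list with a promoter in RefSeq, 5 held the full cyclic AMP response element TGACGTCA in the 250 bases before the start (Btg2, Dusp1, Jund, Maff and Ppp1r15a), as did 531 of 33469 promoters (1.59%) and 279 of 11153 promoters of genes at a mean of at least 1 FPKM (2.50%). Of the CArG box, CC and GG around 6 letters of A and T, the form with ATATTA inside (Egr1) and the form with ATATAT inside (Egr1 and Egr2) were in 10 (0.0299%) and 11 (0.0329%) of the 33469. Both strands were searched, and TGACGTCA and the ATATAT form read the same on both. A match is a description of the letters and does not show binding. Shorter parts of the element and other forms of the CArG box were not searched. The letters CGTCA, a part of TGACGTCA, also occur in the Egr1 and Egr2 sequences below. The 4 promoters below are shown because their genes (values follow) share the lowest library and the 2 highest while their full matches differ. Each gives the 250 bases before the start, 5′ to 3′ on the gene's strand, in RefSeq build GRCr8, with the motifs in capitals: Egr1 at chr18:26736828-26737077 (plus strand), Egr2 at chr20:21054442-21054691 (minus strand), Dusp1 at chr10:17184603-17184852 (plus strand) and Btg2 at chr13:48087691-48087940 (minus strand).
Egr1: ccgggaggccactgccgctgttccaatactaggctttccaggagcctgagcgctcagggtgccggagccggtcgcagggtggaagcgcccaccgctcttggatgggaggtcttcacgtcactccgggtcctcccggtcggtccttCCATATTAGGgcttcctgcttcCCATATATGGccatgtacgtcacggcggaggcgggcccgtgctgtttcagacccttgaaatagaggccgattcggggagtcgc
Egr2: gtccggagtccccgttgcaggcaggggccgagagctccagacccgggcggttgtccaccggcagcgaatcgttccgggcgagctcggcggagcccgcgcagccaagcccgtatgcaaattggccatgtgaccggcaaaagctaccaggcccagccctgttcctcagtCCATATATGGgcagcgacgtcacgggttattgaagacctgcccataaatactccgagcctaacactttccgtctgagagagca
Dusp1: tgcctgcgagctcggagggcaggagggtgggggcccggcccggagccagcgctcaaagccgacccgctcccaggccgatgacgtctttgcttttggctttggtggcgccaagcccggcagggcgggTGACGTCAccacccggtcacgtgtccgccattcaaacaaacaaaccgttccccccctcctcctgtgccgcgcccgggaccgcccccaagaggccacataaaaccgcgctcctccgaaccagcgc
Btg2: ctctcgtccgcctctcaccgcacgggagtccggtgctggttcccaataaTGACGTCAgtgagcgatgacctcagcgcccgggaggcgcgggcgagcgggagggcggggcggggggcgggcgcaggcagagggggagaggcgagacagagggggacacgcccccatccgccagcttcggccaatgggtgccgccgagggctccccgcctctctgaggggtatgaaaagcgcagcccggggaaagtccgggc

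Egr1, a zinc finger transcription factor, was at 87, 79.3, 65.6, 54.8 and 34.8 FPKM, and Egr2, its relative, at 4.82, 4.6, 3.56, 3.29 and 1.75 FPKM. Dusp1, a phosphatase that turns off stress kinases, was at 1187, 997, 856, 915 and 693 FPKM. Btg2, which slows the cell cycle, was at 192, 209, 166, 168 and 127 FPKM. In all 4, control 8 was the lowest library and controls 4 and 5 the highest pair. Among the AP-1 subunits, Fosb was at 145, 71.8, 36.1, 25.3 and 6.98 FPKM, and Fos at 341, 254, 138, 143 and 62 FPKM. Junb was at 357, 369, 211, 196 and 149.7 FPKM, and Jun at 385, 306, 234, 242 and 189.7 FPKM. The SD of log2 values was 1.58 for Fosb and 0.94 for Fos, against 0.57 for Junb, 0.39 for Jun and 0.51 for Egr1. Atf3, a stress-induced member of the same family of factors, was at 56.8, 9.58, 21.2, 12 and 5.37 FPKM. Of the 35 genes of the list, 21 were highest in control 4 and 23 lowest in control 8, against 24.2% and 18.8% of all genes. The count past 2-fold was 17 (48.6%, against 13.1%). It was 8 without control 8 and 11 without control 4, where 10.3% and 6.31% of all genes were. The list held 0.986%, 0.964%, 0.75%, 0.734% and 0.606% of the summed FPKM in control 4 to control 8.

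Control 4 was the extreme library for several metabolic genes. The metabolic lists differed: most respiratory chain genes were highest in it, as given above, while fatty acid and cholesterol genes went both ways. Of 39 fatty acid and cholesterol genes 15 were highest and 14 lowest in control 4, and 6 (15.4%, against 13.1% of all genes) were past 2-fold. The count was 3 without control 4 and 3 without control 5, where 6.31% and 9.93% of all genes were. Scd, the desaturase that makes monounsaturated fat, was at 122 FPKM in control 4 and 16.9 to 32.9 FPKM in the others. Cpt1a, which admits fatty acids to mitochondria, was at 12.8 FPKM in control 4 and 38.3 to 45 FPKM in the others. Pdk4, which shuts off pyruvate oxidation, was at 4.88 FPKM against 14.2 to 26.6 FPKM. These 3 genes were picked for their spread. Mt2A, a metal-binding protein, was at 139, 26.8, 40.3, 45 and 58.5 FPKM, and Errfi1, an inhibitor of EGF receptors, at 190.2, 63.8, 94.8, 100.5 and 115 FPKM, both highest in control 4. Abhd2, a lipase, was at 5.19 FPKM in control 4 and 20 to 30.3 FPKM in the others, and the cation pump Atp13a3 at 0.595 FPKM against 4.09 to 8.91 FPKM. Of the 11 glucocorticoid-responsive genes, 4 were past 2-fold (36.4%, against 13.1% of all genes). The count was 0 without control 4 and 2 without control 5, where 6.31% and 9.93% of all genes were. Whether these differences and the library's higher shares of ribosomal and respiratory chain genes are connected was not tested.

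**Figure D5:**
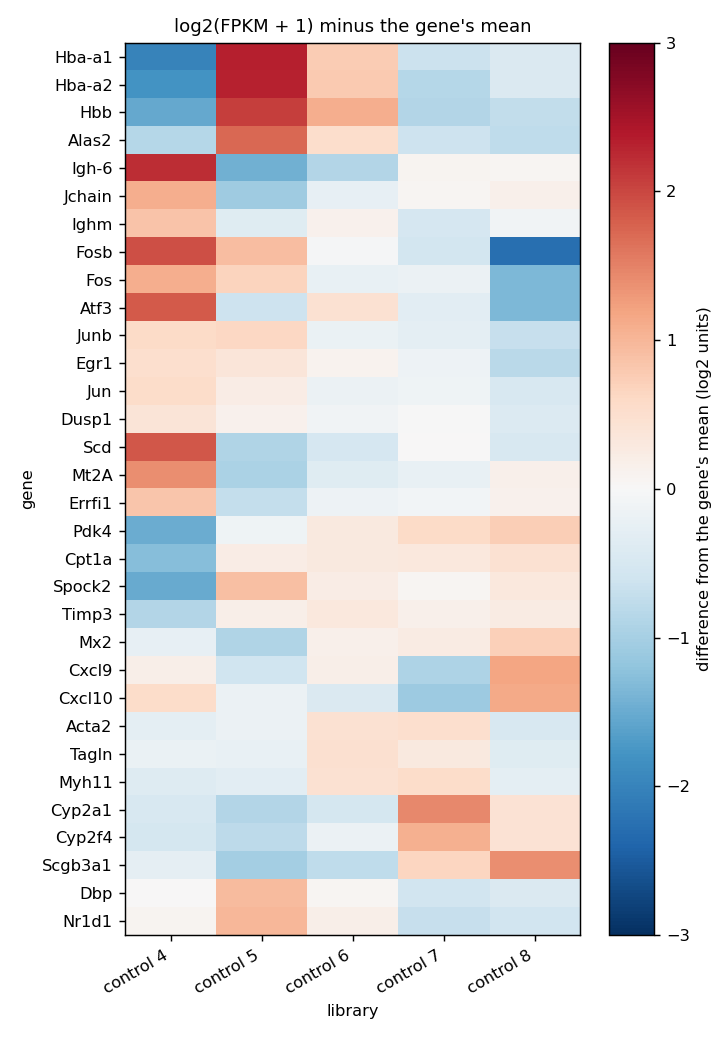
Difference of log2(FPKM + 1) from each gene's mean over the 5 libraries (colour, log2 units) for 32 genes that vary between control libraries, in rows by group. Globin genes are highest in control 5, Fos family genes lowest in control 8, and in control 4 Scd is highest and Cpt1a and Pdk4 are lowest.

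Of 36 interferon-induced genes at a mean of at least 1 FPKM, 26 were highest in control 8 and 27 lowest in control 5, against 21.8% and 24.4% of all genes. The summed share of the list did not follow that count: it was 0.352%, 0.289%, 0.298%, 0.288% and 0.345% in control 4 to control 8, highest in control 4. Mx2, an antiviral GTPase, was at 13.6, 8.28, 18.3, 19.6 and 27.6 FPKM. Cxcl9, a chemokine induced by interferon gamma, was at 29.8, 17, 29.9, 13.3 and 61.3 FPKM, and Cxcl10, which shares its receptor, at 17.7, 10.4, 8.56, 5 and 27.3 FPKM. Of the list 15 were past 2-fold (41.7%, against 13.1% of all genes). The count was 6 without control 5 and 9 without control 8, where 9.93% and 10.3% of all genes were. Of the abundant members, Ifitm3, which blocks viral entry, was at 292 ± 44.3 FPKM (1.40-fold from lowest to highest), while Ifi27 was at 379, 225, 160, 168 and 233 FPKM, highest in control 4. Of 26 cell cycle genes 17 were highest in control 8, against 21.8% of all genes, among them the proliferation marker Mki67 at 1.75, 1.98, 3.51, 2.53 and 4.96 FPKM. Highest in control 4 were 3 of the 26. Among them were the replication clamp Pcna at 68.6, 49.2, 59.4, 58.6 and 62.7 FPKM and the mitotic kinase Aurkb at 62.2, 17.8, 31.9, 58.8 and 21.7 FPKM. Ccnd1, of the same list, was highest in control 6, at 48.9, 55, 57.9, 48.9 and 51.2 FPKM.

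Smooth muscle genes were higher in controls 6 and 7. Acta2, the smooth muscle actin, was at 119, 129, 201, 207 and 105 FPKM. Myh11, its myosin, was at 56.5, 59.4, 102, 108 and 59.9 FPKM, and the actin-binding protein Tagln at 239.6, 236, 381, 337 and 213 FPKM. For each of the 3, controls 6 and 7 were above the other 3 libraries without overlap. Of 23 genes of the list 17 were highest in control 6 or 7, against 28.5% of all genes. Past 2-fold were 9 (39.1%, against 13.1%), or 5 without control 8, where 10.3% of all genes were.

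Some P450 and secretoglobin genes, and some clock genes, gave 2 further orders. Cyp2a1, a P450, was at 10.1, 7.54, 9.88, 41.6 and 20 FPKM, Cyp2f4 at 30.9, 25.4, 39.5, 94.7 and 60.7 FPKM, and the secretoglobin Scgb3a1 at 7.84, 4.33, 5.38, 15.9 and 27 FPKM. All 3 were highest in controls 7 and 8, while Scgb1a1 and Scgb3a2 were highest in control 4. Of 9 airway secretory and basal cell genes, 4 were highest in control 4 and 4 in control 7, so the list as a whole had no single order. Another P450, Cyp1a1, a target of the aryl hydrocarbon receptor, was at 14.4, 5.67, 8.14, 3.82 and 1.12 FPKM. Of the clock genes, Dbp was at 65.2, 126, 68, 43.3 and 47.7 FPKM and Nr1d1, a repressor of the clock, at 30.9, 59.3, 32.8, 17.7 and 19.1 FPKM, both highest in control 5. Per1, a clock gene that glucocorticoids also induce, was at 128 FPKM in control 4 and 71.1 to 75.9 FPKM in the others. Of 17 clock genes 5 were past 2-fold (29.4%, against 13.1% of all genes). The count was 2 without control 5 and 3 without control 4, where 9.93% and 6.31% of all genes were.

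Single genes outside these groups varied as much. Dlk1, a Notch ligand relative and imprinted gene, was at 8.04, 133, 31.5, 86 and 40.1 FPKM. Lyc2, a lysozyme, was at 74.2 FPKM in control 7 and 3.87 to 9.77 FPKM in the others. Cd300lg, an endothelial and epithelial surface receptor, was at 1.38, 16.2, 14.4, 1.14 and 7.87 FPKM, high in controls 5 and 6 and low in controls 4 and 7. Mlc1, a membrane protein, was at 1.1 FPKM in control 4 and 7.86 to 17.9 FPKM in the others. Alox15, a lipoxygenase, was at 13.4, 7.23, 2.23, 3.03 and 13.4 FPKM. Rpl30, a ribosomal protein with processed copies in the genome, was at 672, 237, 55.6, 244 and 43 FPKM, unlike Rplp0 at 1041 to 1191 FPKM, and its value is uncertain.

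The steadiest genes above a mean of 50 FPKM were Fbxw2, a subunit of a ubiquitin ligase, at 56.3 to 58.3 FPKM (SD 0.02 log2 units), Qars1, the glutaminyl-tRNA synthetase, at 62.6 to 65.8 FPKM, and Macroh2a1, a histone variant, at 72.2 to 76 FPKM. The signalling adaptor Ywhaq (163 to 172 FPKM) and the endosomal GTPase Rab7a (157 to 167 FPKM) had SDs of 0.03 and 0.04 log2 units at a higher level. Among the most abundant genes Actb was the steadiest, at 2678, 2786, 2854, 2530.2 and 2673 FPKM (SD 0.07 log2 units), with Rplp0 at the same SD.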

How the data were processed

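RNA of control rat lung was extracted with TRIzol and 1 µg of total RNA per library was made into RNA-seq libraries with a NEBNext Ultra kit, per the labels' protocols. Rnor_6.0 is the build, and StringTie, HISAT2 and cutadapt the tools, that the submitters' processing notes list, with no versions. The deposited values are FPKM per gene, per the file headers. Only the 5 control columns were used. Absolute depth is unknown, so no counting interval is given, and no groups were tested against each other, since 1 group was described. Dixon's criterion was used to find single libraries far from the other 4. The members and gene lists were chosen with earlier results of these data known.

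Means, SDs, ranks, shares and ranges of log2(FPKM + 1), with a pseudocount of 1 and a mean of at least 1 FPKM, were computed with Python 3.11.15, pandas 2.3.3 and numpy 2.4.6, drawn with matplotlib 3.10.9, and tested on simulated data. Named genes were the 30 highest, the 3 highest and the most variable of each list, the 25 with the largest and the 10 with the smallest SD (means of at least 5 and 50 FPKM), and defining markers near 0. Jun family genes, Fos, Btg2, Egr1, Egr2, Alas2, Cpt1a, Nr1d1, Cxcl9, Cyp2a1, Cd79a, Myh11, Mki67, Csf1r, Cd68, Mrc1, Slc34a2, Sftpd, Lamp3, Abca3, Nkx2-1, Aqp5, Cdh5, Eln, Col1a1 and 2 genes without a symbol were named after their values were seen. Promoters are RefSeq's, of build GRCr8. Alternatives were other pseudocounts, filters and scalings, the median, and leaving out each library. Counting Lyz2 as epithelial, and the list counts and directions under other scalings and without a library, were added after seeing the data.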

Additional observations from a re-analysis of the deposited data

Results flagged for a closer look

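For 21 of the 143 named genes examined, 1 library lay far from the other 4. Its gap to the nearest of them took more of the whole range than Dixon's critical value for 5 samples allows. The 143 are not all the genes that the naming rule gives. Further named genes also lay past the value and are not among the 21. Examples are Tpt1 (2409 FPKM in control 4 against 1588 to 1659), Lgals3 (369 against 191 to 216) and Psmb4 (172 against 113 to 118). Another is Cfi (13.4 FPKM in control 7 against 2.41 to 3.86). The genes given below by library are therefore incomplete. Chance flags about 1 in 20 groups, and over all 13253 genes 1046 (7.89%) were past the value, 522 of them through control 4 and 349 through control 5. Some named genes were picked for their spread, so 21 of 143 cannot be set against that share.

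Control 4 stood above the others in Igh-6, at 7194 FPKM against 571 to 1639.7. It was also above them in the calcification inhibitor Mgp (1355 FPKM against 784 to 936), the desaturase Scd (122 against 16.9 to 32.9), the fatty acid carrier Fabp5 (174 against 47.4 to 79.6), the metallothionein Mt2A (139 against 26.8 to 58.5) and the clock gene Per1 (128 against 71.1 to 75.9). AABR07060872.1, which has no symbol, was at 3305 FPKM in control 4 and 393 to 1142 FPKM in the others. Alb was at 0.0379 FPKM in control 4 and listed at 0 elsewhere.

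Control 4 stood below the others in Timp3 (403 FPKM against 826 to 929.9), Fmo2 (580.3 against 970.0 to 997), the P450 Cyp4b1 (241 against 324 to 335) and Cpt1a (12.8 against 38.3 to 45). Control 5 stood above the others in Gsn (2519.7 FPKM against 1655 to 1792), Ager (1722 against 1105 to 1251), Hopx (864 against 669.6 to 710.2), Gpx3 (1146 against 729 to 825), Hba-a3 (112 against 2.56 to 21.3) and Mpo (0.829 against 0 to 0.167).

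Lyc2 was at 74.2 FPKM in control 7 and 3.87 to 9.77 FPKM in the others. In control 8, Inmt was at 172 FPKM against 40.6 to 73.1, and Prox1 at 0.554 FPKM against 0.305 to 0.341.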

How the results depend on the processing

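No paired analysis was possible because a single group was described and no groups were compared. The number of genes whose highest and lowest library differed at least 2-fold was 1741. It moved to 2849 with each library scaled to the same sum (TPM) and to 2779 with a pseudocount of 0.1. Among genes at a mean of at least 5 FPKM, which are fewer, it was 1037. TPM values lay 0.85 to 1.01 log2 units above FPKM while the pseudocount stayed at 1, so the pseudocount weighed less. On that scale 14103 genes reached a mean of 1. With median-of-ratios scaling, which moved values by -0.035 to 0.032 log2 units, the number was 1688. How much of each change the pseudocount made was not tested. Leaving out 1 library gave 836 to 1543, lowest without control 4, with fewer samples in each range. Counting Lyz2 as epithelial moved the epithelial share to 11.8% and the immune share to 3.07%. With the mitochondrially encoded genes out of the denominator, which raises every other share, cytoskeletal, chaperone, proteasome and histone genes held 5.32%, metabolic genes 3.71% and translation genes 8.70%. The other 100 recomputed values of these summaries stayed within the replicate SD or 1.5 times the count. Among single genes and lists, 57 of the recomputed values moved beyond those limits and 1116 did not. The read depth is unknown in absolute terms, so values near 0 carry no detection limit.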

Other observations

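Control 5 was the highest library for 14 of 30 lung transcription factors and signalling genes and for 15 of 29 collagens, against 25.5% of all genes. Control 4 was the lowest library for 14 of those 30, against 32.4% of all genes. Of the lung transcription factors and signalling genes 6 were past 2-fold (20%, against 13.1% of all genes), and 1 was without control 4. Of the collagens 5 were past 2-fold (17.2%), and 0 were without control 4, where 6.31% of all genes were.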
